A study of Mus musculus with 12 samples.

Results

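Mouse embryonic stem cells (ESC) that by their label carry no intact copy of Mbd3 were compared with 3 pluripotent lines that keep at least 1 copy. A gene was taken as raised or lowered where its log2 intensity in the Mbd3 -/- ESC lay at least 1 unit, or 2-fold, above or below each of the 3 lines. By this rule 140 of 19938 genes were raised (0.702%) and 85 were lowered (0.426%). The raised genes included germ cell genes such as Dazl, Asz1 and Usp26, Y-linked genes, and, with some of the widest gaps, the receptor genes Vmn1r14 and Cubn and the iron exporter gene Slc40a1. The lowered genes held Mbd3 itself, the transcription factors Nr0b1, Sox15, Foxd3 and Ebf1, the transcriptional co-activator Eya1, and the epoxide hydrolase Ephx2.

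The comparison used 4 of the 12 arrays of the series, each from 1 line. The Mbd3 -/- ESC and the WT ESC, of the V6.5 line with both copies of Mbd3, have no transgene named in their labels. The WT iPSC (Mbd3+/+) and the flox/- iPSC, with a floxed and a deleted copy of Mbd3, are induced pluripotent stem cells from embryonic fibroblasts (MEF) that carry OSKM, a transgene which expresses Oct4, Sox2, Klf4 and Myc when doxycycline (DOX) is added. All lines were grown in N2B27 medium with serum replacement, the inhibitor pair known as 2i and LIF, on irradiated DR4 feeder fibroblasts, so feeder RNA may be present on every array. The WT ESC array was reused from an earlier series. The other 8 arrays came from MEF labelled -/-, whose label names no transgene, from WT and flox/- MEF with the OSKM transgene, from WT cells at days 4, 8 and 11 of DOX, and from flox/- cells at days 4 and 8 of DOX. The source field of the WT day 8 array names day 4, and its title and stage name day 8.

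Mbd3 is a subunit of NuRD, a complex that joins nucleosome remodelling by Chd4 to histone deacetylation by Hdac1 and Hdac2. Although Mbd3 belongs to the methyl-CpG-binding protein family, the mammalian protein binds methylated DNA poorly. In mouse ESC the complex is known for restraining transcription, and ESC without Mbd3 renew themselves but are known to commit poorly to differentiation. Many germ cell genes are known to be kept silent outside the germ line by methylation of CpG-containing promoters.

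With a single array per line, genotype, line and culture cannot be told apart. The pluripotent lines also differed among themselves. Of all genes, 1327 lay at least 1 log2 unit apart between -/- ESC and WT ESC, 872 between -/- ESC and WT iPSC, and 579 between -/- ESC and flox/- iPSC. Between lines that keep Mbd3 the numbers were 552 for WT ESC and WT iPSC, 881 for WT ESC and flox/- iPSC, and 684 for WT iPSC and flox/- iPSC. When the -/- array was tested against the 3 lines with limma, on the assumption that the lone array varies as the 3 lines do, 0 of 11691 genes above the array median on at least 1 of the 4 arrays (the kept genes) were called (0%) at an adjusted p under 0.05. The lowest adjusted p was 0.186, and 885 genes had an unadjusted p under 0.05. Without the flox/- iPSC, 38 genes were called by limma, 32 higher and 6 lower in -/- ESC, and 30 of them were among the raised and 2 among the lowered genes. The raised and lowered genes are therefore described by their values, with no test, since the rule used the same values.

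**Figure D1:**
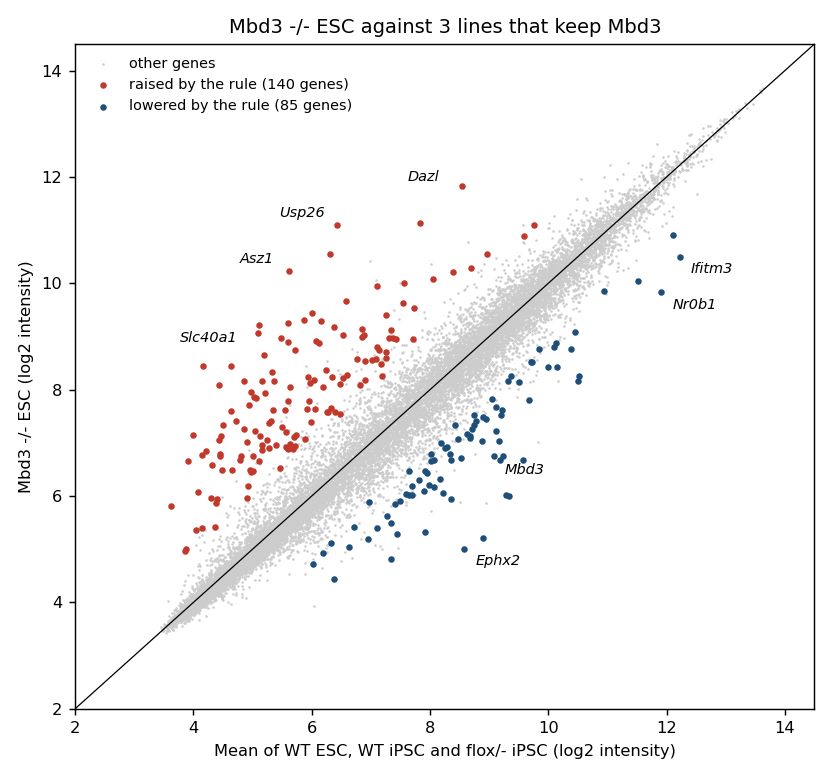
Log2 intensity of 19938 genes in Mbd3 -/- ESC (vertical axis) against the mean of WT ESC, WT iPSC and flox/- iPSC (horizontal axis), 1 point per gene and 1 array per line. The 140 raised genes (red) lie above the line of equal values and include Dazl, Usp26, Asz1 and Slc40a1, and the 85 lowered genes (blue) lie below it and include Mbd3, Nr0b1, Ifitm3 and Ephx2.

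Mbd3 (chr10:80392539-80399531, GRCm38.p6) had a log2 intensity of 6.75 in -/- ESC, 9.33 in WT ESC, 9.20 in WT iPSC and 8.73 in flox/- iPSC. The -/- array was the lowest of the 4 and of all 12 arrays, and the array of the line with 1 floxed copy was the lowest of the 3 lines that keep Mbd3. The fitted difference was -2.33 ± 0.30 (SE of the limma fit; adjusted p = 0.427, 1 array against 3). The -/- value still lay above the median of its array, 6.34. Which exons the probes cover relative to the deletion was not given in the sources used here. In the array labelled -/- MEF, Mbd3 was 8.11, against 9.17 in WT MEF and 8.91 in flox/- MEF. The -/- effect in ESC minus that in MEF was -1.40 ± 0.41 (SE) and was not called by limma over 7 arrays (adjusted p = 0.664).

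The identity of the cells was checked with marker genes. The 8 pluripotency markers lay above the array median on all 4 arrays, with a mean log2 intensity of 11.97 in -/- ESC, 11.82 in WT ESC, 11.73 in WT iPSC and 11.91 in flox/- iPSC. Pou5f1, which encodes Oct4, was 11.95 in -/- ESC and between 12.04 and 12.19 in the 3 lines. The mean of 10 fibroblast markers, which feeder cells also express, was 8.51 in -/- ESC, 9.36 in WT ESC, 9.73 in WT iPSC and 7.13 in flox/- iPSC. It was thus between the values of the other lines in -/- ESC, and lowest in flox/- iPSC. Of 34 genes on the wider fibroblast and matrix list, 0 passed the rule in either direction, 0 lay above all 3 lines and 6 below all 3.

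Genes of the germ line were numerous among the raised genes. A list of germ line and methylation-sensitive genes had 28 measured members, of which 10 were raised by the rule and 0 lowered. Of its 22 kept members, 16 lay above all 3 lines by any margin and 1 below all 3. Over all 11691 kept genes these shares were 26.4% and 30.3%. The median difference of the 22 genes from the mean of the 3 lines was 1.99 log2 units, and the median over all kept genes was -0.03. Some members, such as Sycp2, Tex11 and Magea5, were kept through their -/- ESC value alone. The filter thus favours a count and a median on the raised side. A further grouping of the members, made after their values were seen, put 30 raised genes among those of germ cells, 20 of meiosis, piRNA and other germ cell functions and 10 X-linked germ cell and cancer-testis genes. Of the raised genes, 85 were placed in a functional group in this way, and 56 of the lowered genes. The share of such groups among all genes was not counted. The group sizes given here and below therefore describe the members only.

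Dazl, which encodes an RNA-binding protein needed for germ cell development, was 11.82 in -/- ESC, 6.19 in WT ESC, 8.83 in WT iPSC and 10.61 in flox/- iPSC. Asz1, whose product takes part in piRNA production, was 10.24 in -/- ESC, 3.94 in WT ESC, 4.81 in WT iPSC and 8.10 in flox/- iPSC. Mov10l1, the piRNA pathway helicase, was 8.89 in -/- ESC, 5.56 in WT ESC, 5.93 in WT iPSC and 6.91 in flox/- iPSC. In all of these genes the order was the same, with -/- ESC highest, flox/- iPSC next, and WT ESC lowest. The gap between -/- ESC and flox/- iPSC was 1.21 for Dazl, 2.15 for Asz1 and 1.98 for Mov10l1. Usp26, an X-linked deubiquitinase gene known from the testis, was 11.11 in -/- ESC, 4.40 in WT ESC, 5.85 in WT iPSC and 9.01 in flox/- iPSC, again in this order.

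Genes of meiosis were also on the raised side. Stra8, which is induced at entry into meiosis, was 7.42 in -/- ESC, 4.54 in WT ESC, 5.55 in WT iPSC and 5.84 in flox/- iPSC. Sycp2, which encodes a protein of the chromosome axis in meiosis, was 6.75 in -/- ESC, 4.07 in WT ESC, 4.24 in WT iPSC and 5.01 in flox/- iPSC. Tex11, Tex12, Shoc1 and Hfm1, which act in meiotic recombination or chromosome pairing, passed the rule with gaps of 1.27, 1.14, 1.70 and 1.33 to the nearest line. Sycp1 and Sycp3, partners of Sycp2, did not pass the rule. Sycp1 was 8.05 in -/- ESC, 4.95 in WT ESC, 5.76 in WT iPSC and 7.08 in flox/- iPSC, so its distance from the flox/- iPSC fell just short of 1. Ddx4 and Mael, other germ cell genes, went another way: Ddx4 was 7.45 in -/- ESC and 7.81 in WT iPSC, and Mael was lower in -/- ESC (6.79) than in any of the 3 lines (7.32 to 8.12).

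Genes expressed mainly in testis or oocyte completed this group. Tuba3b, a testis alpha-tubulin gene, was 9.22 in -/- ESC, 4.39 in WT ESC, 4.18 in WT iPSC and 6.77 in flox/- iPSC, the largest gap of the 30 genes, 2.46. Its near-identical partner Tuba3a was 9.63 in -/- ESC, 6.58 in WT ESC, 7.50 in WT iPSC and 8.57 in flox/- iPSC. Probes of such close paralogs may share signal, so the values of this pair are uncertain. Pdha2, the testis form of a pyruvate dehydrogenase subunit, was 6.59 in -/- ESC and 4.13 to 4.55 in the 3 lines. Nlrp14 and Nlrp4c, of an oocyte-expressed gene family, were 7.42 and 9.25 in -/- ESC. Nlrp14 was at most 5.45 in the other lines, whereas Nlrp4c reached 8.25 in flox/- iPSC and lay just inside the rule.

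The X-linked cancer-testis genes are normally silent outside the germ line and placenta. Magea3 was 6.65 in -/- ESC, 3.72 in WT ESC, 3.74 in WT iPSC and 4.26 in flox/- iPSC. Magea6 was 7.33 in -/- ESC, 4.07 in WT ESC, 3.84 in WT iPSC and 5.58 in flox/- iPSC. Magea5 was 7.05 in -/- ESC, 3.59 in WT ESC, 3.70 in WT iPSC and 6.003 in flox/- iPSC. These Magea genes lie beside each other on the X chromosome and are close in sequence, so they are not independent measurements. Mageb4 was 8.34 in -/- ESC and 4.38 to 6.39 in the 3 lines, and Ct55 was 9.67 in -/- ESC and 4.69 to 8.31. Of the homeobox genes of the Rhox cluster, Rhox13 was 9.45 in -/- ESC and 5.002 to 7.85 in the 3 lines, and Rhox9 was 9.14 and 6.45 to 7.40.

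Stretches listed as just before a start are shown for some members. They are 3 raised germ cell genes, 2 raised genes with few or no CpGs, 2 lowered transcription factor genes and Mbd3. Each stretch is the 120 bases before a RefSeq start in GRCm38.p6, 5′ to 3′ along the gene, with every CpG in capitals. Those of Magea3 (gene span chrX:154948180-154959031) and Mov10l1 (chr15:88982891-89055152) do not lie wholly before the gene. The first lies inside it and the second overlaps its start. The positions are chr17:50293621-50293740 (minus strand) for Dazl, chr6:18109062-18109181 (minus strand) for Asz1, chr15:88982874-88982993 (plus strand) for Mov10l1, chrX:154949570-154949689 (minus strand) for Magea3, chr2:13491877-13491996 (minus strand) for Cubn, chrX:86191655-86191774 (plus strand) for Nr0b1, chr11:44617980-44618099 (plus strand) for Ebf1 and chr10:80399532-80399651 (minus strand) for Mbd3.
Dazl: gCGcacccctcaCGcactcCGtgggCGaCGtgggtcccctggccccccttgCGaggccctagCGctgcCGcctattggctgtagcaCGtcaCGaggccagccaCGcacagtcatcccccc
Asz1: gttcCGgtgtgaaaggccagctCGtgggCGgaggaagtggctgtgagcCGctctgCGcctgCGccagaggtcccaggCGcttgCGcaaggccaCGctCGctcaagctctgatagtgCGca
Mov10l1: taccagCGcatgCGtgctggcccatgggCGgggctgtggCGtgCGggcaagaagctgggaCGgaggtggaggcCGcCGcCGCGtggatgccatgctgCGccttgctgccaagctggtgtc
Magea3: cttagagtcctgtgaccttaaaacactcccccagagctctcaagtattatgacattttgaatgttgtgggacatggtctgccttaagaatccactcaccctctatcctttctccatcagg
Cubn: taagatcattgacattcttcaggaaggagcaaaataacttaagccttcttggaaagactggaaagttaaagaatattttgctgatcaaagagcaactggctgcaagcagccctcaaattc
Nr0b1: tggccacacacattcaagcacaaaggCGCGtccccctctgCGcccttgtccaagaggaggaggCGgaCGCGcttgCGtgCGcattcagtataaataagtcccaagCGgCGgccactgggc
Ebf1: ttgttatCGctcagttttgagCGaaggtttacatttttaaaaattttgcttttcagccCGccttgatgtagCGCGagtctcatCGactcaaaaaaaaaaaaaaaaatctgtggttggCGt
Mbd3: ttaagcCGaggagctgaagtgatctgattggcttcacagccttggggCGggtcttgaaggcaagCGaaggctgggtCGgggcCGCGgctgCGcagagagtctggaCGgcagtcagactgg

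The 3 germ cell genes each held 11 CpGs in these 120 bases, while Magea3 and Cubn held 0, Nr0b1 held 10, Ebf1 held 7 and Mbd3 held 8. Raised genes thus included windows both rich and poor in CpG, though the Magea3 window lies inside the gene. A window of 250 bases before a start was found in the RefSeq table for 111 of the 140 raised genes. It was also found for 69 of the 85 lowered genes and 15614 of all genes. Whether each window lies outside its gene was not checked. The median number of CpGs in that window was 8 for the raised, 9 for the lowered, 11 for all genes and 16 for the genes above the array median. A ratio of observed to expected CpGs over 0.6 was found for 45 of the 111 raised genes (40.5%) and 27 of the 69 lowered genes (39.1%), beside 49.0% of all genes. Over the 24 windows found for the 30 raised germ cell genes the median was 7 CpGs, and 9 (37.5%) had such a ratio, so the 3 CpG-rich germ cell genes shown do not stand for the group. Of the raised X-linked genes, 6 of 27 (22.2%) had it. The E-box CACGTG, which reads the same on both strands, was found in 10 of the 111 raised windows (9.01%), beside 7.03% of all windows. The letters TCCCGC on either strand, which form an E2F-like motif, were found in 16 of them (14.4%), beside 23.3% of all windows. These shares describe the letters only, and 29 raised genes had no window.

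**Figure D2:**
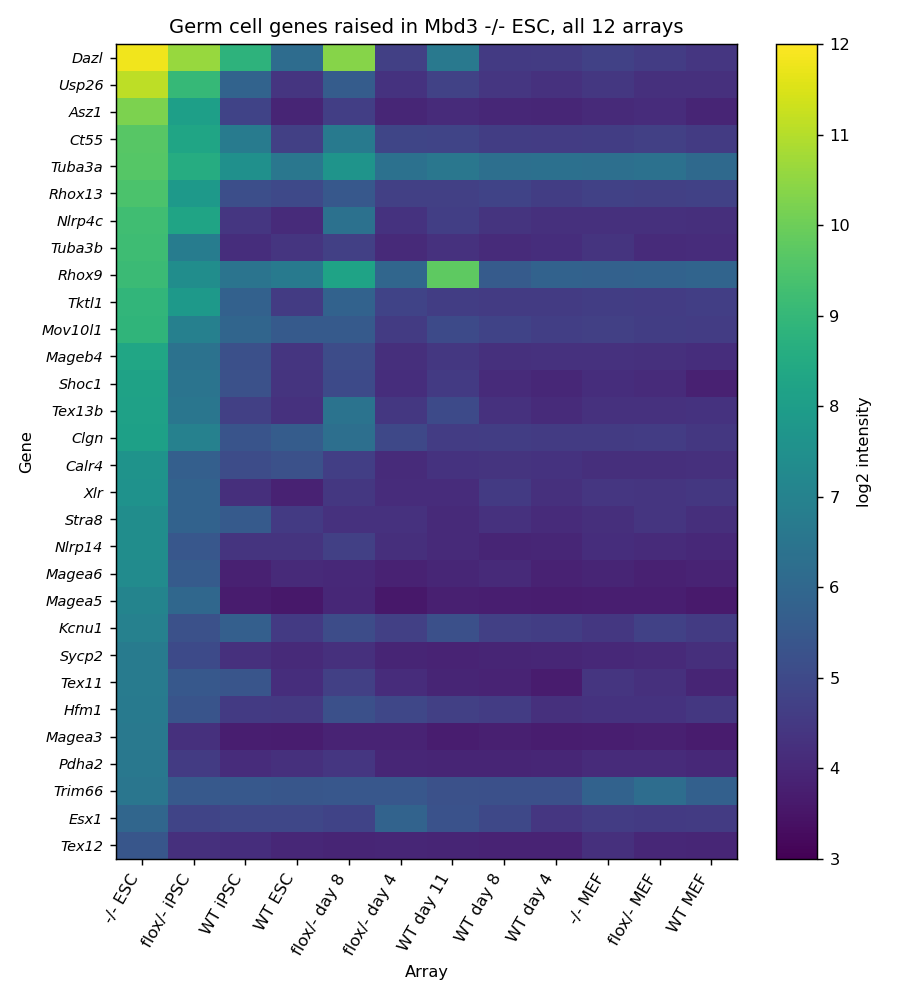
Log2 intensity (colour) of the 30 raised germ cell genes (vertical axis, ordered by their level in -/- ESC) on all 12 arrays of the series (horizontal axis). The median over the 30 genes is 7.86 in -/- ESC and 6.20 in flox/- iPSC, and between 4.25 and 5.12 on the other 10 arrays; flox/- day 8 is 5.06 and WT iPSC is 5.12.

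The same 30 genes were followed over all 12 arrays, of which the rule used the 4 pluripotent ones. On the arrays by which the rule chose the genes, their median was 7.86 in -/- ESC, 6.20 in flox/- iPSC, 5.12 in WT iPSC and 4.39 in WT ESC. On the MEF arrays it was 4.34 in -/- MEF, 4.25 in WT MEF and 4.26 in flox/- MEF, close to the bottom of the scale. At days 4, 8 and 11 of DOX it was 4.26, 4.36 and 4.56 in WT cells, and at days 4 and 8 it was 4.31 and 5.06 in flox/- cells. The -/- MEF array was therefore not apart from the other MEF arrays in these genes, and flox/- day 8 was the highest of the 5 DOX arrays in 23 of the 30 genes (25.9% of all genes). Dazl was 10.37 at flox/- day 8, 4.53 at WT day 8 and 6.65 at WT day 11. The mean of the 8 pluripotency markers was 11.93 at flox/- day 8, 6.37 at WT day 8 and 11.07 at WT day 11, and its part in this difference was not tested.

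The Y-linked raised genes were Usp9y, Kdm5d, Zfy1 and Uba1y, neighbours on the short arm of the Y chromosome. Usp9y, a deubiquitinase gene, was 8.45 in -/- ESC, 4.06 in WT ESC, 4.13 in WT iPSC and 5.72 in flox/- iPSC. Kdm5d, a histone demethylase gene, was 7.87 in -/- ESC, 4.70 in WT ESC, 4.72 in WT iPSC and 5.65 in flox/- iPSC. Both WT lines lay low in both genes. Zfy1, which encodes a zinc finger protein, was 7.96 in -/- ESC, 3.97 in WT ESC, 4.11 in WT iPSC and 6.86 in flox/- iPSC. Uba1y, the Y-linked copy of a ubiquitin-activating enzyme gene, was 9.29 in -/- ESC, 5.14 in WT ESC, 5.50 in WT iPSC and 7.82 in flox/- iPSC.

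Other Y-linked genes did not divide the lines in the same way. Eif2s3y, a translation factor gene, was 10.37 in -/- ESC, 9.21 in WT ESC, 5.04 in WT iPSC and 9.78 in flox/- iPSC. Uty was 9.52 in -/- ESC, 8.99 in WT ESC, 7.04 in WT iPSC and 9.50 in flox/- iPSC. In these genes WT ESC stood near -/- ESC and flox/- iPSC, and WT iPSC stood apart. Xist, which marks X inactivation, was 7.40 in -/- ESC, 8.95 in WT ESC, 9.78 in WT iPSC and 7.12 in flox/- iPSC. Of the raised genes 31 were X-linked (22.1%) and 4 Y-linked (2.86%), of the lowered genes 9 were X-linked (10.6%), and of all genes 3.71% were X-linked and 0.0451% Y-linked. The sex chromosomes of the lines, and their part in these counts, were not tested. Without X- and Y-linked genes, 105 genes were raised and 76 lowered.

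Some members lay side by side in the genome. Within 500000 bases, 17 neighbouring pairs were both raised, 6 were both lowered and 6 ran in opposite directions. How often genes at large lie this close and share a direction was not counted, so these numbers are a description. Some pairs are close paralogs whose probes may share signal. Raised neighbours were Rhox9 and Rhox13, Ct55 and Xlr with a gene model between them, the Magea and Y-linked genes above, the vomeronasal receptor genes Vmn1r14 and Vmn1r15, and Asz1 with Cftr, which encodes a chloride channel. Cftr was 5.36 in -/- ESC and 3.94 to 4.17 in the 3 lines. Ifitm1 and Ifitm3 were lowered neighbours. Nr0b1 and Mageb4 lie beside each other on the X chromosome and went in opposite directions.

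**Figure D3:**
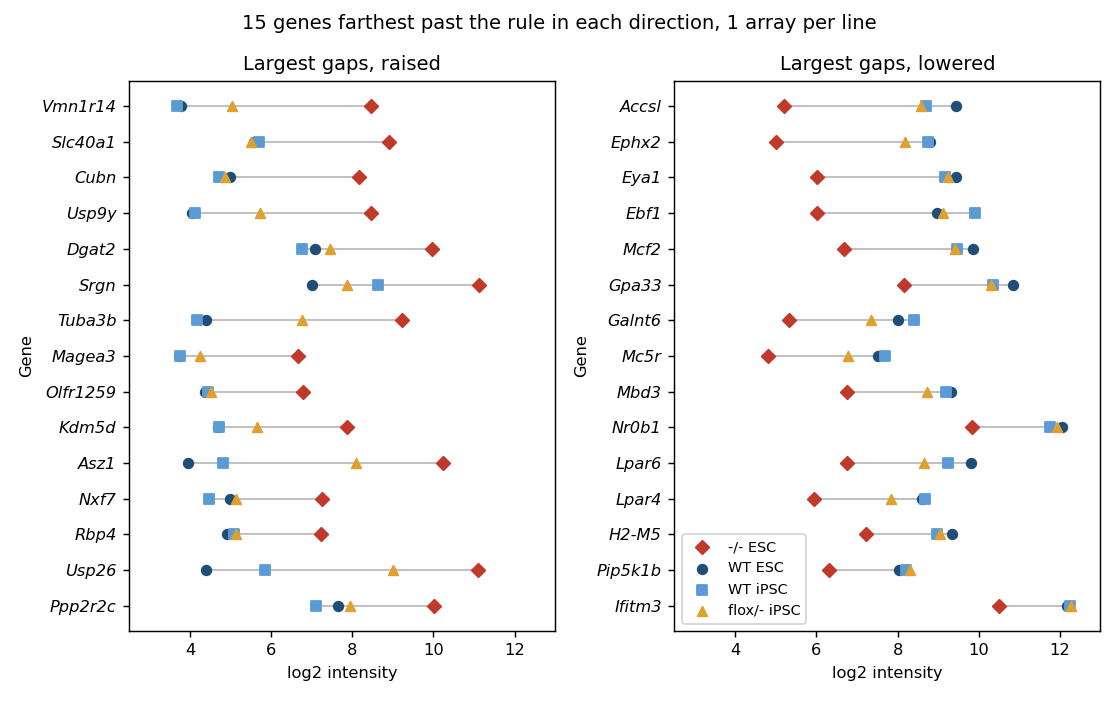
Log2 intensity (horizontal axis) of the 15 genes with the largest gap to the nearest line in each direction, leaving out gene models (left, raised; right, lowered), with 1 marker per line and 1 array per marker. Vmn1r14, Slc40a1 and Cubn lead the raised genes and Accsl, Ephx2 and Eya1 the lowered genes; for Asz1, Tuba3b and Usp26 the flox/- iPSC lies between -/- ESC and the WT lines.

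In the same grouping, made after the values were seen, 15 raised genes were of transport and uptake. Slc40a1, which encodes the iron exporter ferroportin (chr1:45908070-45926532), was 8.90 in -/- ESC, 5.58 in WT ESC, 5.70 in WT iPSC and 5.51 in flox/- iPSC. Cubn, the endocytic receptor cubilin of visceral endoderm and kidney, was 8.17 in -/- ESC, 4.99 in WT ESC, 4.72 in WT iPSC and 4.85 in flox/- iPSC. Rbp4, the carrier of retinol in plasma, was 7.23 in -/- ESC, 4.91 in WT ESC, 5.09 in WT iPSC and 5.13 in flox/- iPSC. These genes were each at nearly the same level in the 3 lines, with an SD over the lines of 0.10 log2 units for Slc40a1, 0.13 for Cubn and 0.12 for Rbp4 (n = 3). The gaps to the nearest line were 3.20 for Slc40a1, 3.19 for Cubn and 2.10 for Rbp4, or 9.17-fold, 9.10-fold and 4.29-fold.

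Lipid and redox metabolism gave 10 raised genes. Dgat2, the last enzyme of triglyceride synthesis, was 9.95 in -/- ESC, 7.09 in WT ESC, 6.77 in WT iPSC and 7.46 in flox/- iPSC. Elovl4, which elongates very long fatty acids, was 10.22 in -/- ESC, 8.14 in WT ESC, 8.26 in WT iPSC and 8.78 in flox/- iPSC. Sgms2, a sphingomyelin synthase gene, was 7.78 in -/- ESC and 5.79 to 6.08 in the 3 lines. By the rule -/- ESC was the highest of the 4 arrays in each of these genes. Over the whole series it was not: Dgat2 reached 10.92 at flox/- day 4 and Sgms2 reached 9.05 at WT day 8. Gpx2, a glutathione peroxidase gene, was 10.29 in -/- ESC and 8.37 to 9.22 in the 3 lines, with WT iPSC nearest.

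Raised genes of transcription and chromatin included Otx2, a regulator of the exit from the naive state, which was 8.98 in -/- ESC, 7.16 in WT ESC, 7.20 in WT iPSC and 7.77 in flox/- iPSC. Satb1, a chromatin organiser, was 8.53 in -/- ESC and 6.32 to 7.50 in the 3 lines. Tet3, which oxidises 5-methylcytosine, was 7.66 in -/- ESC and 5.99 to 6.61 in the 3 lines, and only 1 of its 2 probe sets passed the rule. Among the genes for DNA methylation that did not pass it, Dnmt3a was 9.0 in -/- ESC and 7.36 to 8.17 in the 3 lines, and Dnmt3b was 6.72 in -/- ESC and 7.45 to 8.46 in the 3 lines. Uhrf1, which guides maintenance methylation, was 10.02 in -/- ESC and 10.56 to 10.77 in the 3 lines. Of the 37 genes on the list of DNA methylation and chromatin modifiers, Tet3 alone passed the rule; 9 lay above and 20 below all 3 lines.

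Genes with known neural or synaptic roles numbered 10. Ppp2r2c, a regulatory subunit of a protein phosphatase, was 10.01 in -/- ESC, 7.66 in WT ESC, 7.10 in WT iPSC and 7.95 in flox/- iPSC. Nnat, an imprinted gene, was 8.22 in -/- ESC and 5.89 to 6.98 in the 3 lines. It was the only one of 24 measured imprinted genes past the rule. On the list of neural genes, 0 of 19 passed the rule, and 4 of the 13 kept genes lay above all 3 lines and 4 below. Signalling genes on the raised side were Inhbe, an inhibin subunit gene, at 8.04 in -/- ESC and 5.03 to 6.16 in the 3 lines, and Hhip, a hedgehog antagonist gene, at 9.18 and 5.46 to 7.83.

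Sensory receptor genes were also among the raised genes. Vmn1r14, a vomeronasal receptor gene, had the largest gap of all raised genes, 3.42, and was 8.45 in -/- ESC, 3.78 in WT ESC, 3.69 in WT iPSC and 5.03 in flox/- iPSC. The olfactory receptor gene Olfr1259 was 6.78 in -/- ESC and 4.37 to 4.51 in the 3 lines. Both belong to large families of similar genes, so the gene behind the signal is uncertain. Nxf7, of a family of RNA export factors, was 7.26 in -/- ESC and 4.48 to 5.12 in the 3 lines, and reached 8.47 at WT day 11.

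Primitive endoderm genes were on the raised side as a list, but most of them by less than the rule asks. Of 23 measured genes, Cubn and Srgn passed it. Of 17 kept genes, 12 lay above all 3 lines and 1 below, with a median difference of 0.77 log2 units. Cubn was kept through its -/- ESC value alone, a filter that favours the raised side. Srgn, which encodes the proteoglycan serglycin, was 11.13 in -/- ESC, 6.99 in WT ESC, 8.64 in WT iPSC and 7.86 in flox/- iPSC. It is not particular to primitive endoderm in this series, at 11.42 in WT MEF, 10.11 in flox/- MEF, 8.09 in -/- MEF and 12.86 at WT day 8. Gata6, a master regulator of primitive endoderm, was 8.58 in -/- ESC, 6.94 in WT ESC, 6.98 in WT iPSC and 7.64 in flox/- iPSC. Gata4 was 7.37 in -/- ESC and 6.52 to 7.08 in the 3 lines, and Sox17, a further defining gene, was 4.73 in -/- ESC and 4.52 to 4.80 in the 3 lines, near the floor everywhere. A share of this list, such as Pdgfra and Col4a1, is also expressed by fibroblasts. The mean of 8 primitive endoderm markers was 7.43 in -/- ESC, 6.66 in WT ESC, 6.70 in WT iPSC and 6.59 in flox/- iPSC, and 7.31 to 7.39 in the 3 MEF. A small number of cells with a high level and a low level in all cells cannot be told apart in such bulk samples.

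Of the trophoblast list, Esx1 and Rhox9 passed the rule on the raised side, and 7 of the 22 kept genes lay above all 3 lines and 7 below, with a median difference of -0.16. Esx1, a homeobox gene of the placenta, was 5.96 in -/- ESC and 4.85 to 4.93 in the 3 lines, below the array median throughout. Of the preimplantation list, Nlrp14 passed.

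The lowered genes were fewer. Of the 85, 83 lay above the array median in WT ESC, 83 in WT iPSC and 81 in flox/- iPSC, and 54 did so in -/- ESC. Of the 140 raised genes, 128 lay above the array median in -/- ESC, 34 in WT ESC, 39 in WT iPSC and 69 in flox/- iPSC. Over all genes the share above the array median was 54.0% in -/- ESC, 55.5% in WT ESC, 54.6% in WT iPSC and 54.2% in flox/- iPSC. Most raised genes were thus below the array median in the WT lines, and most lowered genes were above it in -/- ESC too. By its gap of 1 log2 unit the rule favours values above the median on the higher side, so these counts describe the members only. Where the lower value is near the floor, the fold change may be understated.

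Genes of transcription and chromatin were 10 of the lowered genes. Nr0b1, an orphan nuclear receptor of the naive pluripotency network known as Dax1, was 9.83 in -/- ESC, 12.05 in WT ESC, 11.76 in WT iPSC and 11.93 in flox/- iPSC. Sox15, a relative of Sox2, was 7.62 in -/- ESC, 9.24 in WT ESC, 9.25 in WT iPSC and 9.17 in flox/- iPSC. Foxd3, a forkhead factor of early embryonic cells and neural crest, was 6.20 in -/- ESC, 8.54 in WT ESC, 7.69 in WT iPSC and 7.73 in flox/- iPSC. For Nr0b1 and Sox15 the 3 lines lay close together and -/- ESC apart. Of the 36 measured genes of the pluripotency list, Nr0b1 alone passed the rule. Sox2 was 12.50 in -/- ESC and 12.22 to 12.43 in the 3 lines, Nanog was 12.71 and 12.39 to 12.72, and Esrrb was 11.11 and 11.29 to 11.41. Of the 35 kept genes of that list 6 lay above and 15 below all 3 lines, with a median difference of -0.08.

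Eya1, a transcriptional co-activator and phosphatase of organ development, was 6.02 in -/- ESC, 9.44 in WT ESC, 9.16 in WT iPSC and 9.23 in flox/- iPSC. Ebf1, a factor of B cells and stromal cells, was 6.01 in -/- ESC, 8.96 in WT ESC, 9.90 in WT iPSC and 9.12 in flox/- iPSC. Both genes were also high in MEF, at 10.58 in -/- MEF, 9.27 in WT MEF and 10.66 in flox/- MEF for Eya1, and at 10.96, 10.56 and 10.99 for Ebf1. In 29 of the 85 lowered genes (34.1%) all 3 MEF arrays lay at least 1 log2 unit above -/- ESC. The share was 9.44% of all genes and 12.9% of the kept genes. The rule favours the count in the lowered genes, since it chose them for a low value in -/- ESC. The fibroblast marker mean was lower in -/- ESC (8.51) than in WT ESC (9.36) and WT iPSC (9.73), but higher than in flox/- iPSC (7.13). The part of feeder RNA in these genes was not tested.

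Receptors and signalling genes made up 16 of the lowered genes. Lpar6, a receptor for lysophosphatidic acid, was 6.75 in -/- ESC, 9.82 in WT ESC, 9.24 in WT iPSC and 8.66 in flox/- iPSC. Lpar4, another receptor for this lipid, was 5.95 in -/- ESC, 8.59 in WT ESC, 8.66 in WT iPSC and 7.83 in flox/- iPSC. Mc5r, a melanocortin receptor gene, was 4.81 in -/- ESC, 7.52 in WT ESC, 7.69 in WT iPSC and 6.79 in flox/- iPSC. The flox/- iPSC was the lowest of the 3 lines in 14 of these 16 genes. Bmp7, the only one of 33 measured genes of the TGF-beta, BMP and Nodal pathways past the rule, was 7.34 in -/- ESC and 8.38 to 9.06 in the 3 lines.

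Metabolic genes were another 16 of the lowered genes. Ephx2, the soluble epoxide hydrolase, was 5.002 in -/- ESC, 8.80 in WT ESC, 8.76 in WT iPSC and 8.19 in flox/- iPSC, a gap of 3.19 or 9.10-fold. Ldhb, the lactate dehydrogenase B subunit, was 9.08 in -/- ESC, 10.55 in WT ESC, 10.51 in WT iPSC and 10.30 in flox/- iPSC. Upp1, which splits uridine, was 8.77 in -/- ESC, 9.91 in WT ESC, 10.51 in WT iPSC and 10.75 in flox/- iPSC. Ldhb was the only one of 21 measured glycolysis genes past the rule. Galnt6, which starts O-glycan chains, was 5.32 in -/- ESC and 7.34 to 8.42 in the 3 lines. Accsl had the largest gap of all lowered genes, 3.36, and was 5.21 in -/- ESC, 9.44 in WT ESC, 8.71 in WT iPSC and 8.57 in flox/- iPSC.

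Ifitm1 and Ifitm3 encode interferon-induced membrane proteins that are also expressed in pluripotent and primordial germ cells. Ifitm3 was 10.50 in -/- ESC, 12.17 in WT ESC, 12.25 in WT iPSC and 12.27 in flox/- iPSC. Ifitm1 was 10.04 in -/- ESC, 11.74 in WT ESC, 11.44 in WT iPSC and 11.38 in flox/- iPSC. They were the only lowered genes among 21 measured genes of the interferon list. Of its 13 kept genes 1 lay above and 6 below all 3 lines, with a median difference of -0.37. H2-M5, a non-classical MHC gene, was 7.22 in -/- ESC and 8.98 to 9.34 in the 3 lines, and Gpa33, a cell surface antigen gene, was 8.16 and 10.31 to 10.84.

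Of the NuRD subunits, Mbd3 alone passed the rule. Among the 18 genes of the list, 4 lay above all 3 lines and 9 below, with a median difference of -0.14. Mbd2, which takes the place of Mbd3 in other NuRD complexes, was 9.79 in -/- ESC, 9.68 in WT ESC, 9.53 in WT iPSC and 9.89 in flox/- iPSC. Chd4, the remodelling enzyme, was 10.91 in -/- ESC and 10.83 to 10.95 in the 3 lines. Hdac2 was 10.12 in -/- ESC and 10.64 to 10.81 in the 3 lines, and Hdac1 was 10.96 and 11.15 to 12.20. Of the 8 kept genes for methyl-CpG-binding proteins, 1 lay above and 5 below all 3 lines, and Mbd3 alone passed the rule.

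**Figure D4:**
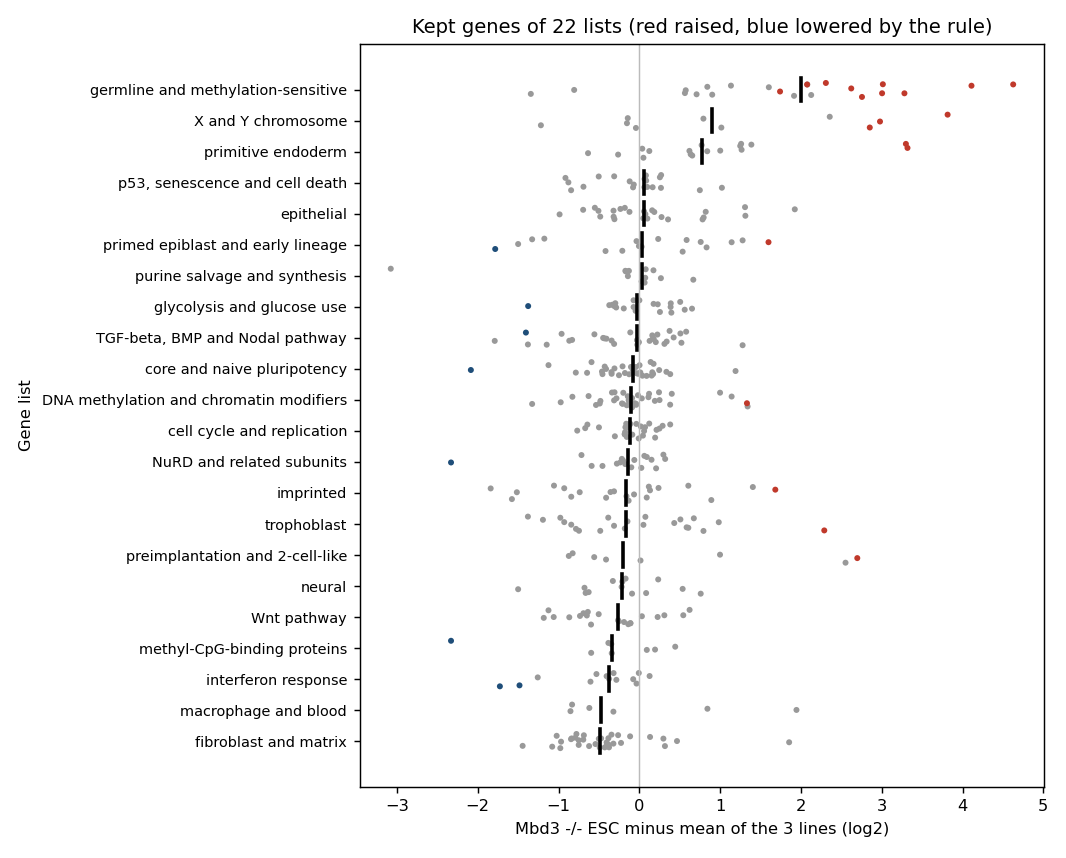
Difference of Mbd3 -/- ESC from the mean of the 3 lines (horizontal axis, log2) for the kept genes of 22 lists (vertical axis), 1 point per gene and a black bar at each list's median. Points in red and blue were raised and lowered by the rule. The germ line list has the highest median, 1.99, and the fibroblast and matrix list the lowest, -0.48. Some germ line genes were kept through their -/- ESC value alone, which favours a high median.

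Of the remaining lists, 0 genes passed the rule among 28 measured Wnt pathway genes, 27 epithelial genes, 17 macrophage and blood genes, 20 genes of p53, senescence and cell death, 27 cell cycle genes and 13 purine genes. The purine gene Hprt was 5.87 in -/- ESC, 10.94 in WT ESC, 10.96 in WT iPSC and 4.94 in flox/- iPSC. It was thus far below both WT lines in -/- ESC, and missed the rule because the flox/- iPSC was low too. In the Wnt list 2 of 21 kept genes lay above and 9 below all 3 lines, with a median difference of -0.26. In the cell cycle list 5 of 27 lay above and 11 below, with a median of -0.11. The list of primed epiblast and early lineage genes had Otx2 raised and Foxd3 lowered, and Fgf5, a defining gene of the primed state, was 5.67 in -/- ESC and 5.57 to 5.84 in the 3 lines.

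The 3 lines did not stand at equal distances from the -/- ESC. Among the 140 raised genes the flox/- iPSC was the highest of the 3 lines in 110, beside 30.3% of all genes and 45.1% of the 4380 genes in which -/- ESC was the highest of the 4 arrays. WT iPSC was the highest in 21 and WT ESC in 9. The full order WT ESC, WT iPSC, flox/- iPSC, -/- ESC held in 75 of the 140 and in 1192 of the 4380 genes. The order of the 3 lines alone held in 3128 of all 19938 genes. The median distance of the raised genes below -/- ESC was 2.29 log2 units in WT ESC, 2.12 in WT iPSC and 1.42 in flox/- iPSC. The flox/- iPSC was at least 1 log2 unit above the WT iPSC in 41 of the raised genes and at least 1 below in 0. Over all 19938 genes these counts were 246 and 438, and over the 4380 genes they were 93 and 17. Without X- and Y-linked genes the flox/- iPSC was the highest in 78 of 105.

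Among the 85 lowered genes the flox/- iPSC was the lowest of the 3 lines in 51, beside 34.1% of all genes and 42.1% of the 6411 genes in which -/- ESC was the lowest. The median distance of the lowered genes above -/- ESC was 1.71 in WT ESC, 1.50 in WT iPSC and 1.37 in flox/- iPSC. The germ cell genes followed the pattern of the raised genes, with the flox/- iPSC highest of the 3 lines in 28 of 30. In the transport group it was highest in 9 of 15, and in the transcription and chromatin group in 5 of 9. These counts come from the same 4 arrays that the rule used, and the flox/- iPSC is 1 line.

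**Figure D5:**
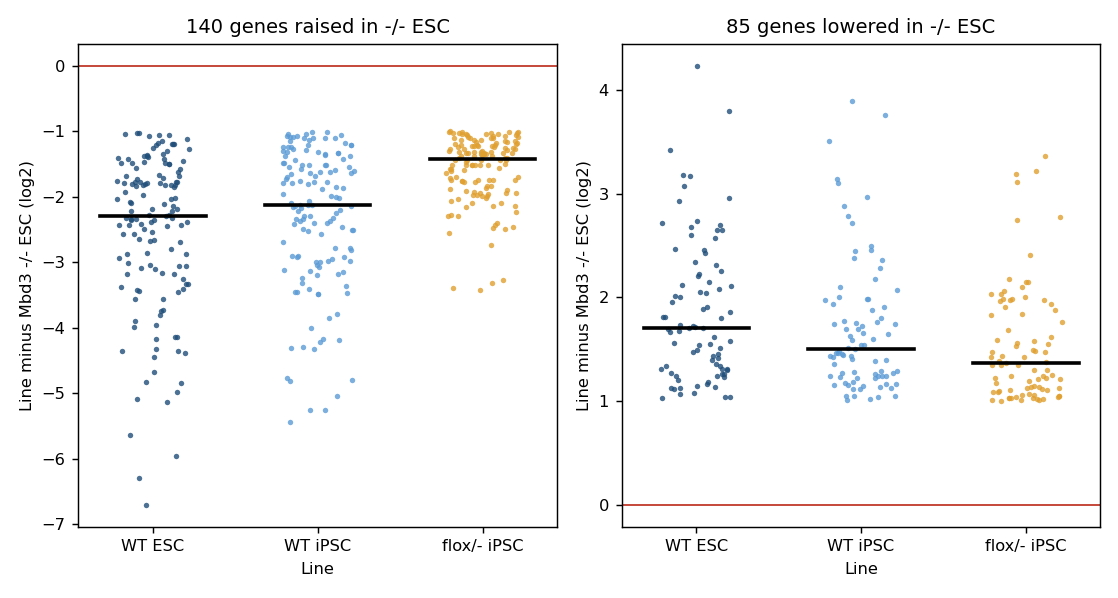
Difference of WT ESC, WT iPSC and flox/- iPSC from Mbd3 -/- ESC (vertical axis, log2) for the 140 raised genes (left) and the 85 lowered genes (right), 1 point per gene; the black bar is the median and the red line marks -/- ESC. In the raised genes the medians lie 2.29, 2.12 and 1.42 below -/- ESC, and by the rule no point lies nearer than 1.

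The array labelled -/- MEF carries the same genotype label in another cell type, but its Mbd3 value was 8.11, above the 6.75 of -/- ESC. It was the lowest of the MEF arrays, with a difference of -0.93 from the mean of the others. With 1 -/- array in each cell type, Mbd3 was called by limma in neither. This array lay at least 1 log2 unit above both other MEF in 1 of the 140 raised and 1 of the 85 lowered genes, beside 0.366% of all genes. It lay at least 1 below both in 3 raised and 2 lowered genes, beside 0.908% of all genes. The median difference of -/- MEF from the mean of the other MEF was 0.01 for the raised genes, -0.01 for the lowered genes and 0.02 for all genes. Of the raised genes, 98 lay below the array median on all 3 MEF arrays (70.0%, beside 42.2% of all genes). The raised gene that was also at least 1 above both other MEF in -/- MEF was Cyp4a12b, a cytochrome P450 gene with close paralogs that may share its signal, at 8.99 in -/- MEF, 4.21 in WT MEF and 7.56 in flox/- MEF. It was 8.75 in -/- ESC, 5.19 in WT ESC, 4.57 in WT iPSC and 7.37 in flox/- iPSC. The choice of this gene fixed -/- as the highest in both cell types, so its order of genotypes is only a description.

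Slc40a1 went the opposite way in the fibroblasts. It was 5.25 in the array labelled -/- MEF, 8.24 in WT MEF and 8.16 in flox/- MEF. The difference between the -/- effect in ESC, 3.31 ± 0.17, and in MEF, -2.95 ± 0.18, was 6.26 ± 0.25 (SE of the limma fit over 7 arrays; adjusted p = 0.00952). It was the only one of 12557 genes called for such a difference (0.00796%), and 849 genes had an unadjusted p under 0.05. Without the WT ESC, 0 genes were called, and the adjusted p of Slc40a1 was 0.137 at a difference of 6.25. The ESC side of this difference had selected the gene, and the MEF side alone had an adjusted p of 0.0995. Slc40a1, Srgn, Tm6sf1, Cfp and Apoe were the members at least 1 below both other MEF in -/- MEF. The mean of 5 macrophage markers was 7.88 in -/- MEF, 11.02 in WT MEF and 10.23 in flox/- MEF, and 6.31 in -/- ESC, 5.42 in WT ESC, 7.37 in WT iPSC and 5.12 in flox/- iPSC. The part of macrophage RNA in the values of these genes was not tested.

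Across all 12 arrays, -/- ESC had the highest value in 103 of the 140 raised genes and in 29 of the 30 germ cell genes. Rhox9 was the exception among the germ cell genes, with 9.76 at WT day 11 and 9.14 in -/- ESC. The share was 34.8% of the 4380 genes in which -/- ESC was the highest of the 4 pluripotent arrays by any margin. The rule asks for a gap of at least 1 log2 unit and so favours a larger share among the raised genes. The germ cell genes were also grouped after their values were seen. Of the 85 lowered genes, 30 had their lowest value in -/- ESC (35.3%), which is near the 32.1% of the 6411 genes in which it was the lowest of the 4 pluripotent arrays. The flox/- day 8 array lay at least 1 log2 unit above WT day 8 in 27 of the raised and 43 of the lowered genes, beside 9.08% of all genes, and at least 1 below in 19 and 8, beside 12.1%. Many lowered genes were thus higher in flox/- day 8 than in WT day 8: Nr0b1 was 12.09 and 5.05. The pluripotency marker mean of 11.93 and 6.37 on these arrays ran in the same direction, and its part was not tested.

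The threshold of 1 log2 unit cut through a continuous range. Just inside it on the raised side were Slc7a6, Nlrp4c and Faiml, with gaps of 1.006, 1.004 and 1.0004, and just outside were Slc25a4, Drc3 and Slc7a11, with 0.999, 0.995 and 0.979. On the lowered side Ech1, Clmp and Apoe were inside, with 1.0104, 1.0104 and 1.003, and Hspb8, Apobec1 and Nr4a1 outside, with 0.999, 0.993 and 0.990. Of 15 members with several probe sets, all probe sets of 8 passed the rule, and those of all 15 had the same direction.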

How the data were processed

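Biotin-labelled RNA from TRIzol extracts was hybridised to Affymetrix arrays, per the labels' protocols. The deposited values of the authors are log2 intensities, from 3.11 to 13.99, for 35512 probe sets on 12 arrays. How they were summarised and normalised was not given in the sources used here, and no detection call was used here. Array intensities have no sequencing depth, and the number of arrays limits the precision. Array medians differed by 0.122 over the 12 arrays and by 0.043 over the 4 pluripotent arrays, and the values were used as deposited, with quantile normalization as an alternative.

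Of the probe sets, 21789 had 1 gene symbol, 1621 several and 12102 none in the array annotation, and 21698 had an Entrez identifier in RefSeq (GRCm38.p6). Only probe sets with 1 symbol were used. Where a gene had more than 1 probe set (999 genes), that of highest mean represented it, which left 19938 genes. Genes above the array median on at least 1 of the 4 arrays (11691) were kept for limma 3.58.1 in R 4.3.3, with Benjamini-Hochberg adjustment and a threshold of 0.05. A second fit used the 7 arrays without DOX (12557 genes). The scripts were tested on simulated data. Tables used Python 3.11.15 with pandas 2.3.3. Errors are standard errors of the limma fit. Nothing in the labels gives replicate cultures of a line.

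Named were Mbd3, the 15 members with the largest gap in each direction without gene models, list members past the rule, the 3 genes on each side of the threshold and up to 4 further genes per list. Other members were named for their function after their values were seen. The members, the rule and the 22 lists were chosen with earlier results of these data known. Alternatives were quantile normalization, the mean over probe sets, no filter or a filter on dim genes, other gaps, the 7-array fit and leaving out each of the 3 lines.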

Additional observations from a re-analysis of the deposited data

Results flagged for a closer look

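Slc40a1, the gene of the iron exporter ferroportin, drew attention because the -/- effect ran in opposite directions in the cell types. The -/- effect in ESC minus that in MEF was 6.26 on the log2 scale by limma over 7 arrays. There is 1 array labelled -/- in each cell type. Mbd3 itself was called lower in neither, with a difference of -2.33 in ESC and -0.93 in MEF. Slc40a1 had been selected by its higher value in -/- ESC. Macrophage markers differed among the MEF arrays in the same direction as Slc40a1, and their part in the value was not tested.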

How the results depend on the processing

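Each of the 4 arrays is a single line, so the counts depend on which lines are compared. The number of raised genes (140) was 490 with a gap of at least 0.5 and 22 with a gap of at least 2, and the number of lowered genes (85) was 466 and 8. Leaving out each of the 3 lines in turn gave 157 to 271 raised and 112 to 262 lowered genes, with the highest counts without the flox/- iPSC. Quantile normalization gave 132 and 87. The raised genes with the flox/- iPSC highest of the 3 lines (110 of 140) numbered 309 with a gap of at least 0.5, 18 with a gap of at least 2 and 105 after quantile normalization, alternatives chosen after seeing the data. The limma count of 0 was 1 in the fit over 7 arrays, where Slc40a1 was called (adjusted p = 0.0394), and 0 to 38 when 1 line was left out, with 38 without the flox/- iPSC. The count of 1 gene with different -/- effects in ESC and MEF was 0 without the WT ESC. The Mbd3 difference kept its direction under every alternative, from -2.51 to -2.21. Of 406 further values for 58 named genes, 390 kept both direction and side of the threshold, 16 passed the threshold under an alternative, and 0 changed direction.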
